A study of Drosophila melanogaster with 3 samples.

Results

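The mitochondrial ribosomal protein genes of the fruit fly Drosophila melanogaster were taken as the protein-coding genes whose symbol begins with mRpL or mRpS and a number, for proteins of the large and of the small ribosomal subunit. There were 73 of them, 47 large-subunit and 26 small-subunit genes, among 13945 protein-coding genes on the main chromosome arms. Each was described by the peaks of the repressor Deadpan (Dpn) near its start sites. The group as a whole was picked from measured values of these same data, with its peaks already known, so the counts below are descriptions and no test was run on them.

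Mitochondria carry their own ribosomes, which translate the few proteins that the mitochondrial genome encodes, all of them parts of the respiratory chain and ATP synthase in animals. The ribosomal RNA comes from the mitochondrial genome, whereas every mitochondrial ribosomal protein is encoded in the nucleus and imported. Part of these proteins descend from bacterial ribosomal proteins and the rest were gained later by mitochondria. Dpn is a transcriptional repressor with a basic helix-loop-helix domain, related to Hairy and to the Enhancer of split proteins, and best known for keeping neural stem cells of the fly in their self-renewing state.

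The data came from chromatin immunoprecipitation sequencing of embryos from the strain dpn-GFP, a transgenic line that stably makes Dpn with GFP at its C-terminus, with an antibody to GFP. All 3 samples were biological replicates of this single group, each a pool of whole male and female embryos aged 0 to 16 h, sonicated to fragments of 200 to 800 bp. No untagged or untreated group was analysed here, and a control file entered the authors' peak calls. Whole embryos were used, so a peak cannot be placed in one cell type, and neither can few cells with strong binding be told apart from many cells with weak binding.

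Replicates 1 and 3 and the pooled replicates were each given as a list of 30000 peaks, and replicate 2 as one of 22475. A thresholded set of 6253 peaks was derived by the authors from these lists, and it consisted of the first 6253 pooled peaks by signal, a value on a scale that the sources used here do not define. Ranks below run from the strongest signal (rank 1) downward within 1 list. A gene is said to have a thresholded summit when the summit of such a peak, its highest point, lay within 1 kb of an annotated start site. Read depth is unknown from peak lists, so no counting error can be given. Spread is shown by the replicates.

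Of the 73 genes, 43 (58.9%) had a thresholded summit within 1 kb of a start, against 31.3% of all protein-coding genes. The best pooled summit near a start had a median rank of 4714 over the 73 genes and 15826 over all protein-coding genes, with genes that had none placed last. Large-subunit genes stood at 27 of 47 (57.4%) and small-subunit genes at 16 of 26 (61.5%), with median ranks of 5664 and 4254.5. The shares of both subunits thus lay close together. Genes numbered after bacterial ribosomal proteins (mRpL numbers to 36, mRpS numbers to 21) had a thresholded summit in 17 of 28 large-subunit and 9 of 14 small-subunit cases. The remaining numbers, mostly proteins found only in mitochondria, had one in 10 of 19 large-subunit and 7 of 12 small-subunit cases. In mammals the proteins called MRPS18A and MRPS30 sit in the large subunit despite their names, and both fly genes, mRpS18A and mRpS30, were among those without a thresholded summit.

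The same picture was read from each replicate taken to its own first 6253 peaks. Replicate 1 had such a summit at 36 of the 73 genes (49.3%), against 31.2% of all genes. Replicate 2 had one at 38 (52.1%), against 29.1%. Replicate 3 had one at 41 (56.2%), against 31.7%. Of the 43 genes with a thresholded summit, 28 (65.1%) were among the first 6253 in all 3 replicates, against 73.9% of all genes with a thresholded summit, 12 were in 2 and 3 in 1. The thresholded set was made from these replicates, so this is a measure of spread and not a separate check.

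**Figure D1:**
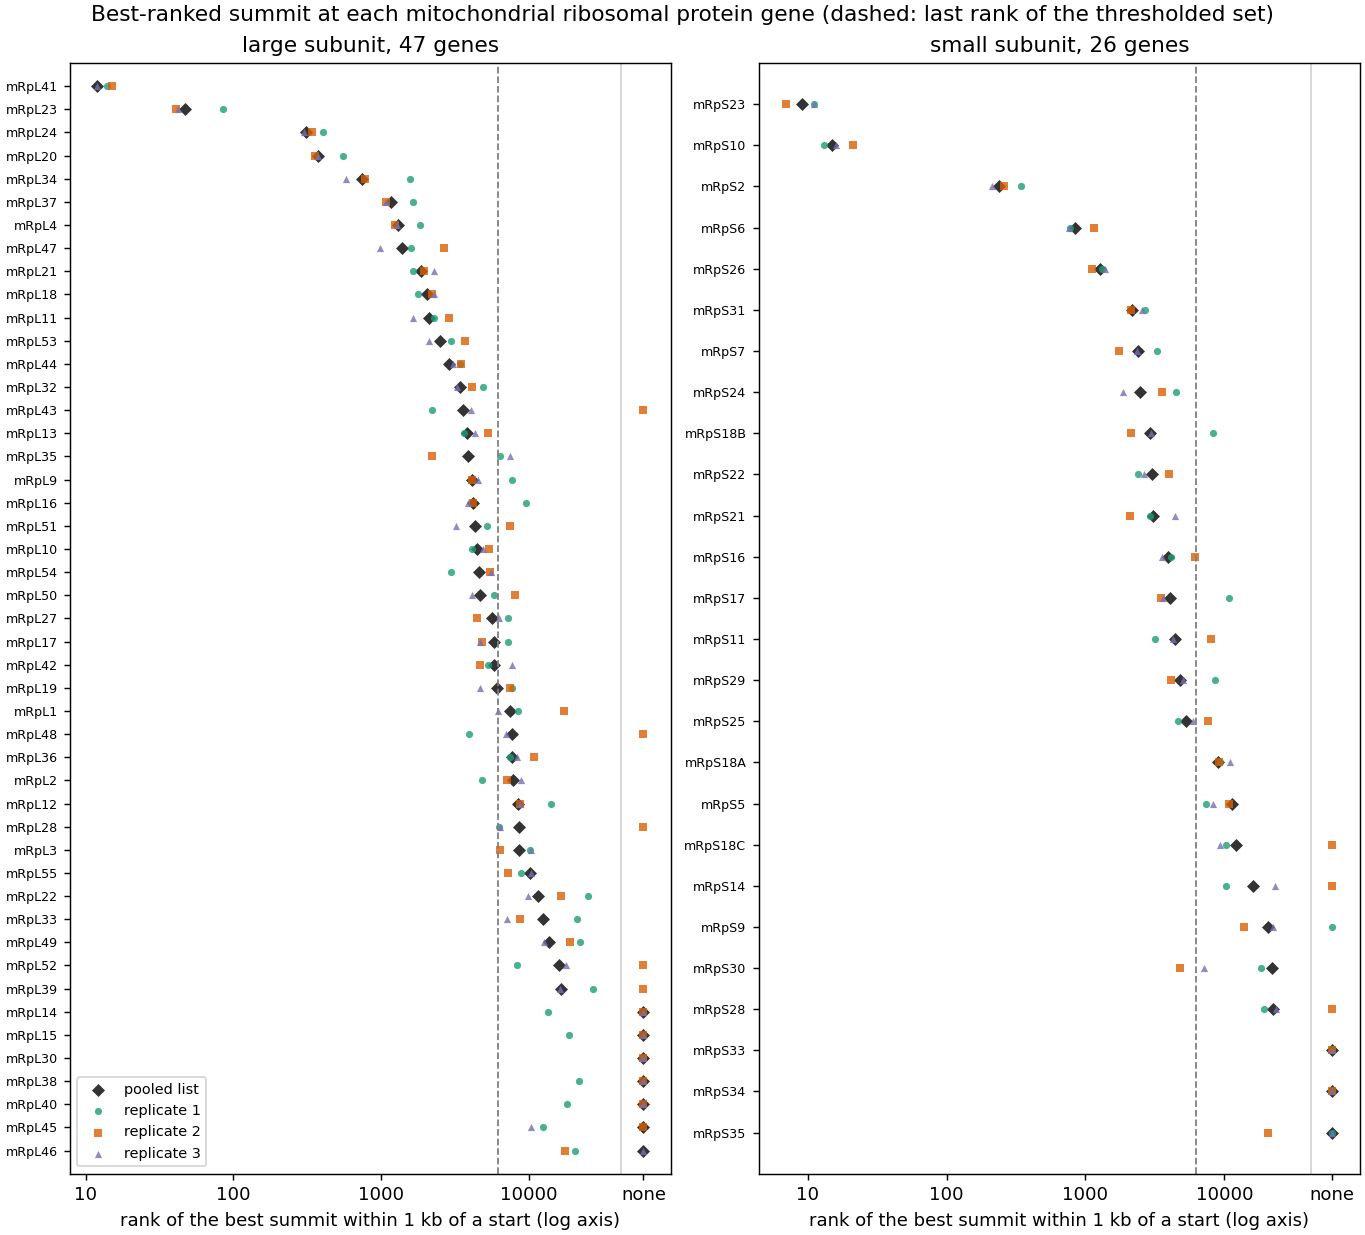
Rank of the best summit within 1 kb of a start (log axis, strongest at left) for each of the 47 large-subunit genes (left) and 26 small-subunit genes (right), in the pooled list (diamonds) and in replicates 1 to 3 (circles, squares and triangles), with genes that had no summit drawn under none. The dashed line marks the last thresholded rank, 6253, and 43 diamonds lie to its left, from rank 9 at mRpS23 to rank 6086 at mRpL19.

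A few of the genes stood beside the strongest peaks of the whole data set. The 43 thresholded ranks ran from 9 to 6086 with a median of 2920. Within the first 100 lay the summits of 4 of the 73 genes (5.48%), against 0.817% of all protein-coding genes. mRpS23 (FBgn0260407), for a small-subunit protein, had the best-ranked summit, at rank 9 in the pooled list, with ranks 11, 7 and 11 in replicates 1 to 3 and a pooled signal of 2719. Its summit lay 377 bp upstream of its start, and the start of the neighbour CenG1A, which points the other way, was nearer. mRpS10 (FBgn0038307), for a counterpart of bacterial protein S10, ranked 15 in the pooled list, and 13, 21 and 16 in the replicates. That summit lay 136 bp upstream of mRpS10, with the start of Art3, an arginine methyltransferase gene, nearer. mRpS2, for the counterpart of bacterial S2, ranked 239 in the pooled list, and 341, 259 and 213 in the replicates, with its summit 156 bp upstream. The start of Mon1 was nearer to that summit. mRpL24, whose bacterial counterpart helps to start assembly of the large subunit, ranked 310 in the pooled list, and 405, 340 and 299 in the replicates, with its summit 134 bp upstream. There the start of betaggt-I was nearer. In each of these 4 genes the replicates lay close together beside the span of 6253 ranks.

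Sequence around these summits is shown as a description of letters. A summit is the highest point of a peak, and the position of binding within the peak was not tested. Each line gives 50 bp to either side of the summit, 5′ to 3′ on the strand of the gene, read from the RefSeq genome, Release 6 (dm6), with capitals for any word searched below.
mRpS23 (chr2L:13835399-13835499, strand −): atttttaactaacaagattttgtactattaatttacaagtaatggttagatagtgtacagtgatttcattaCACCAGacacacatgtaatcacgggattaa
mRpS10 (chr3R:15229479-15229579, strand +): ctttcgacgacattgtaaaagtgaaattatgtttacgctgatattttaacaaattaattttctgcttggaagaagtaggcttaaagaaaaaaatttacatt
mRpS2 (chr2L:4850525-4850625, strand −): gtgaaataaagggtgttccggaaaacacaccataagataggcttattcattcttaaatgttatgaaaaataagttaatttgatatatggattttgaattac
mRpL24 (chr2L:4945445-4945545, strand −): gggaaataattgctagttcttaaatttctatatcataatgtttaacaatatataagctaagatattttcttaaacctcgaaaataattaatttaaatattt
The stretches are rich in A and T. Over the 43 genes the median G+C content of this 101-bp window was 30.7%, against 34.7% at the summits of the other 4326 protein-coding genes with one. Among these 4 lines, mRpS23 held the one searched word, an N-box.

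Large-subunit genes with strong summits covered both old and newer proteins. mRpL41 (FBgn0034001), for a protein with no bacterial counterpart, ranked 12 in the pooled list, and 14, 15 and 12 in the replicates. Its peak lay at chr2R:15217560-15217995, and the summit, 143 bp upstream, was nearer to the mRpL41 start than to any other. mRpL23 (FBgn0035335), whose bacterial counterpart lines the exit of the ribosomal tunnel, ranked 47 in the pooled list, and 85, 41 and 42 in the replicates. Its summit lay inside the gene, 58 bp downstream of the nearest of its 3 annotated starts. CG9004 starts on the other strand, 24 bp from the most upstream start of mRpL23. mRpL20 ranked 375 in the pooled list, and 552, 357 and 373 in the replicates, with the summit 271 bp upstream and Icmt as the facing gene. The Icmt start was nearer to that summit. mRpL34 ranked 741 in the pooled list, and 1572, 783 and 580 in the replicates, so replicate 1 was the weakest there. It faces Dg, the dystroglycan gene. mRpL37 ranked 1162 in the pooled list, and 1653, 1088 and 1082 in the replicates, with its summit 88 bp upstream. mRpL4, whose bacterial counterpart forms part of the wall of the exit tunnel, ranked 1308 in the pooled list, and 1834, 1253 and 1287 in the replicates. For all of these large-subunit genes the summit ranked lowest in replicate 1, except at mRpL41, where it was replicate 2.

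The other well-ranked small-subunit genes were mRpS6 and mRpS26. mRpS6, for a counterpart of bacterial S6, ranked 840 in the pooled list, and 777, 1159 and 760 in the replicates, with the summit 97 bp upstream. mRpS26, for a protein found only in mitochondria, ranked 1266 in the pooled list, and 1311, 1106 and 1385 in the replicates, with the summit 270 bp upstream. The start of CG13698 was nearer to that summit. In all, 9 of the 73 genes (12.3%) had a summit within the first 1000 ranks, against 7.27% of all protein-coding genes, and 24 (32.9%) within the first 3126, against 18.8%.

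Genes for well-known ribosomal parts followed at lower ranks. mRpL11, whose bacterial counterpart belongs to the site where translation GTPases dock, ranked 2120 in the pooled list, and 2290, 2879 and 1646 in the replicates. mRpS7 ranked 2394, and 3253, 1730 and 2336 in the replicates, and faces Cdk1, the mitotic kinase gene. mRpL44 ranked 2885, and 3421, 3465 and 3076 in the replicates, and faces Snr1, a gene for a chromatin remodelling subunit. mRpL10, for a protein of the ribosomal stalk base, ranked 4492, and 4112, 5399 and 4934 in the replicates. mRpS29, the fly counterpart of the human GTP-binding protein DAP3, ranked 4759, and 8503, 4158 and 5045 in the replicates, so replicate 1 placed it outside the first 6253. The best summits of mRpL11, mRpL44 and mRpS29 were nearer to the start of the facing gene.

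Further genes with a thresholded summit lay between rank 1391 and the limit. mRpL47, counterpart of bacterial L29 at the tunnel exit, ranked 1391 in the pooled list, and 1590, 2689 and 981 in the replicates. mRpL21 ranked 1854 in the pooled list, and 1637, 1944 and 2289 in the replicates, and faces rept, a gene for a helicase of chromatin complexes. mRpL18 ranked 2063, and 1786, 2212 and 2271 in the replicates, with the start of Taz, the gene for the enzyme that remodels the mitochondrial lipid cardiolipin, 20 bp away. All 3 replicates placed these genes well inside the first 6253. mRpL53 ranked 2525, and 2995, 3704 and 2106 in the replicates, with the summit 30 bp upstream. mRpS16, for the counterpart of bacterial S16, ranked 3908, and 4114, 6110 and 3531, with cg, a gene for a Polycomb group recruiter, facing it. mRpL42 ranked 5858, and 5313, 4706 and 7770, with its summit 5 bp from the start. At mRpS16 replicate 2 and at mRpL42 replicate 3 was the weakest, so no replicate was the weakest throughout. The summits of mRpL47, mRpL21, mRpL18 and mRpS16 were nearer to the start of another gene.

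Close to the limit the replicates were divided. The weakest thresholded summit of the group belonged to mRpL19, at rank 6086 with a signal of 125 in the pooled list, and ranks of 7786, 7539 and 4689 in the replicates. Just outside it, mRpL1 ranked 7432 in the pooled list with a signal of 105, and 8519, 17275 and 6194 in the replicates. These neighbours on either side of the threshold had overlapping replicate ranks. In each of them replicate 3 alone reached the first 6253. mRpL35 and mRpL27 were the other genes with a thresholded summit and support from 1 replicate, replicate 2 in both.

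Some genes had replicates far apart. The ranks of mRpS18B were 8235, 2134 and 2962 in replicates 1 to 3, with a highest-to-lowest ratio of 3.86. At mRpL35 they were 6384, 2220 and 7492, a ratio of 3.37, and at mRpS17 they were 10734, 3494 and 3598, a ratio of 3.07. Among genes without a thresholded summit, mRpS30 had ranks of 18269, 4829 and 7166, a ratio of 3.78, and only 21960 in the pooled list. mRpL43 had a thresholded summit at pooled rank 3575, and ranks of 2224 in replicate 1 and 4046 in replicate 3, but replicate 2 listed no peak there and its nearest summit was 9946 bp away. Across the genes that had a summit in both lists, the Spearman correlation of ranks was 0.81 between replicates 1 and 2 (55 genes), 0.86 between 1 and 3 (63 genes) and 0.87 between 2 and 3 (55 genes). These describe genes within the same libraries, which share their embryo line and control.

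The 30 genes without a thresholded summit included some of the most conserved parts of the ribosome. They were mRpL1, mRpL2, mRpL3, mRpL12, mRpL14, mRpL15, mRpL22, mRpL28, mRpL30, mRpL33, mRpL36, mRpL38, mRpL39, mRpL40, mRpL45, mRpL46, mRpL48, mRpL49, mRpL52 and mRpL55 of the large subunit. Those of the small subunit were mRpS5, mRpS9, mRpS14, mRpS18A, mRpS18C, mRpS28, mRpS30, mRpS33, mRpS34 and mRpS35. mRpL2 and mRpL3, whose bacterial counterparts surround the site of peptide bond formation, ranked 7869 and 8661 in the pooled list. mRpL12, for the protein of the flexible stalk that recruits translation factors, ranked 8418. Of these 30 genes, 20 had a summit in the relaxed pooled list, at ranks from 7432 to 22446 with a median of 11462. Another 10 had none there, and mRpL30, mRpS33 and mRpS34 had none in any of the lists. A first-6253 summit appeared in 1 replicate at 4 of the 30, namely mRpL1, mRpL48, mRpL2 and mRpS30. These counts have no count over all genes without a thresholded summit beside them. With or without one, 63 of the 73 genes (86.3%) had a summit in the relaxed pooled list, against 60.5% of all protein-coding genes. The lack of a peak in these lists does not show a lack of binding, since depth and detection limits are unknown.

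The same 43 genes were counted within 500 bp as within 1 kb of a start. Of all protein-coding genes, 27.7% had a thresholded summit within 500 bp. The farthest thresholded summit counted was that of mRpS25, 454 bp from its start, and the nearest one not counted lay 1430 bp from mRpL55, followed by 1454 bp at mRpS18A. No gene of the group lay between these distances. Within 2 kb 48 of the 73 genes (65.8%) had a thresholded summit, against 36.9% of all protein-coding genes.

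Most summits sat a short way upstream of the start. In 41 of the 43 genes (95.3%) the best summit was upstream, against 86.2% of all protein-coding genes with a summit. The exceptions were mRpL23, 58 bp downstream, and mRpS11, 19 bp downstream. The distance to the start ran from 5 to 454 bp with a median of 134 bp, against 157 bp for the other 4326 genes with a summit. Between 51 and 300 bp upstream lay 33 of the 43 (76.7%), against 54.1% of those other genes, and 17 of the 43 (39.5%) lay within 100 bp of the start, against 32.7% of all genes with a summit. Genes with a summit had been chosen to lie within 1 kb, which the distances here do not approach. Of the 43 genes, 39 had a facing gene that starts within 1 kb upstream, against 2607 of all 4369 genes with a summit. Positions were not compared among genes with a facing gene alone.

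**Figure D2:**
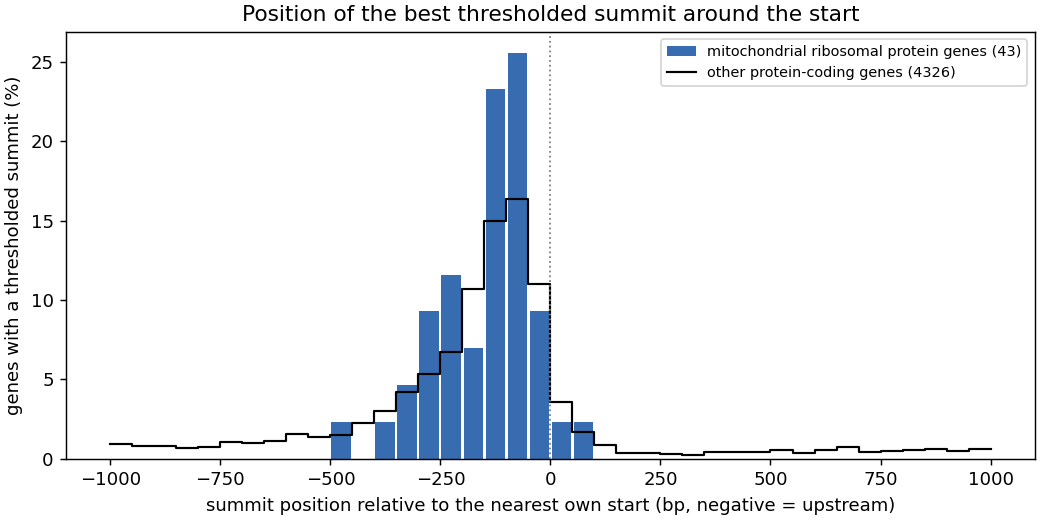
Share of genes with a thresholded summit (%) by the position of the best summit relative to the nearest own start (bp, 50-bp bins, negative is upstream), for the 43 mitochondrial ribosomal protein genes (bars) and the other 4326 protein-coding genes with one (line). The bars lie between 500 bp upstream and 100 bp downstream, and their highest bin, 100 to 50 bp upstream, holds 25.6% of the 43 genes against 16.4% of the others.

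In 5 genes a pair of thresholded summits lay near the start. The peaks of each pair overlapped, and whether they mark separate sites of binding was not tested. No such count over all protein-coding genes is given here, so whether pairs were common in the group is unknown. At mRpS22 one lay 245 bp upstream (rank 3022), nearer to CG5003, and another 44 bp upstream (rank 4912), nearer to mRpS22. mRpS26 had summits at 270 bp (rank 1266) and 68 bp upstream (rank 2693), and mRpS29 at 329 bp (rank 4759) and 72 bp upstream (rank 5586). In these 3 genes the better-ranked summit was nearer to the facing gene and the other nearer to the ribosomal protein gene. mRpL37 had summits at 88 bp (rank 1162) and 288 bp upstream (rank 3161). mRpS31 had ranks of 2177 at 200 bp and 5121 at 1 bp upstream, both nearer to its own start.

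Facing neighbours were common in the group. A head-to-head partner, here a protein-coding gene on the other strand that starts within 1 kb upstream, was present at 58 of the 73 genes (79.5%), against 35.2% of all protein-coding genes. None of these partners was itself one of the 73. The distance between the facing starts had a median of 283 bp, against 300 bp over all genes with a partner. Of the 58 genes with a partner, 39 (67.2%) had a thresholded summit, against 53.1% of all genes with a partner. Of the 15 without one, 4 (26.7%) had a summit, against 19.5% of all genes without a partner. These 4 were mRpL13, mRpL9, mRpL10 and mRpL19, at ranks 3835, 4112, 4492 and 6086. The share of genes with a summit was thus closer to the background within each class than over the whole group.

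A summit between facing genes belongs to either. In 34 of the 39 genes with a partner and a summit, the summit lay between the starts, and in all 39 it was also within 1 kb of the partner's start. It was nearest to the start of the ribosomal protein gene in 16 of these 39. Over all 43 genes the nearest start was the gene's own in 20 and another gene's in 23. These counts have no count over all protein-coding genes beside them. When a summit was given only to its nearest start, 24 of the 73 genes (32.9%) had one, against 29.1% of all protein-coding genes, a share near the background. The partners were of many kinds, among them the DNA repair gene rad50 beside mRpS29, the histone methyltransferase gene trr beside mRpL16, the RNA interference gene AGO1 beside mRpL53 and the mitochondrial protease gene HtrA2 beside mRpL11. Which gene of a pair such a peak concerns was not tested.

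Spacing and chromosome went with the summits, in splits that were chosen after the values were seen. With facing starts at most 100 bp apart, 7 of 18 genes (38.9%) had a thresholded summit, against 48% of all genes so spaced. With starts over 100 and up to 1000 bp apart, 32 of 40 (80%) had one, against 54%. On the X chromosome 2 of the 8 genes with starts over 100 and up to 1000 bp apart (25%) had one, against 48.6% of such X genes. On the autosomes 30 of 32 (93.8%) had one, against 55%, and the exceptions were mRpL1 and mRpL39, of which mRpL39 faces the proteasome gene Prosbeta2. Over all spacings, 2 of 11 X-linked genes (18.2%) had a thresholded summit, against 31.7% of all X-linked genes, while 41 of 62 autosomal genes (66.1%) had one, against 31.3% of all autosomal genes. mRpL16, at rank 4200 and with 9600, 4219 and 3869 in the replicates, was one of the X-linked pair, and mRpS25, at rank 5337 and with 4604, 7638 and 5965, was the other. None of the 11 X-linked genes had a summit within the first 3126 ranks, against 18.8% of all protein-coding genes on any chromosome. No such share over all X-linked genes is given here, so whether this was unusual is unknown.

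**Figure D3:**
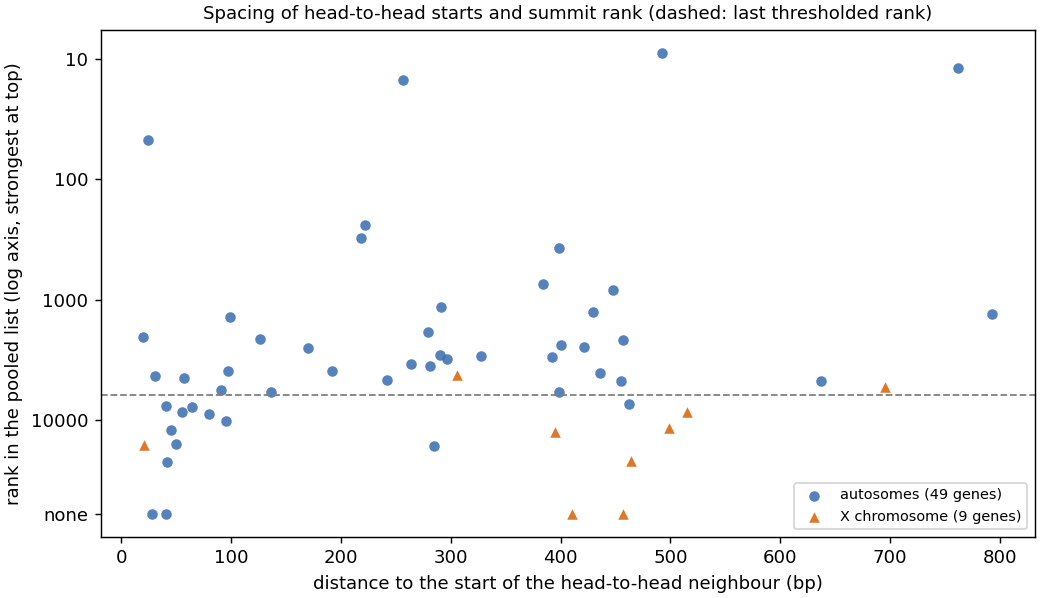
Pooled rank of the best summit within 1 kb (log axis, strongest at top) against the distance between the facing starts (bp) for the 58 genes with a head-to-head partner, on the autosomes (circles, 49 genes) and the X chromosome (triangles, 9 genes). Of the 32 circles beyond 100 bp, 30 lie above the dashed line that marks the last thresholded rank, 6253, and of the 8 triangles beyond 100 bp 2 do. Over all protein-coding genes so placed, the shares were 55% on the autosomes and 48.6% on the X chromosome. These splits were chosen after the values were seen.

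The sequence of the promoters was not used to choose the group. Words were searched on both strands from 250 bp before to 50 bp after the most upstream start. A word with N takes any base there. TATCGATA, the site of Dref, a factor known for genes of growth and DNA replication, was present in 15 of the 73 promoters (20.5%), against 9.36% of all protein-coding promoters. In 14 of these 15 (93.3%) it began within 50 bp of the start, against 59.4% of all promoters that hold it. The exception was mRpL22, at 73 bp. GGTCACAC, the core of Motif 1, bound by M1BP, was present in 8 (11%), against 7.7%. GAGAG, the core site of GAGA factor, was present in 12 (16.4%), against 29.7%. CAGGTAG, the Zelda site, was in none, against 1.64%.

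Words known for the class of proteins that holds Dpn were also counted. The E-box CACGTG was present in 5 of the 73 promoters (6.85%), against 4.2% of all. CACGCG was present in 4 (5.48%), against 6.12%. The N-box CACNAG was present in 24 (32.9%), against 29.7%. A match is a description of letters, and no match says nothing of the factor.

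**Figure D4:**
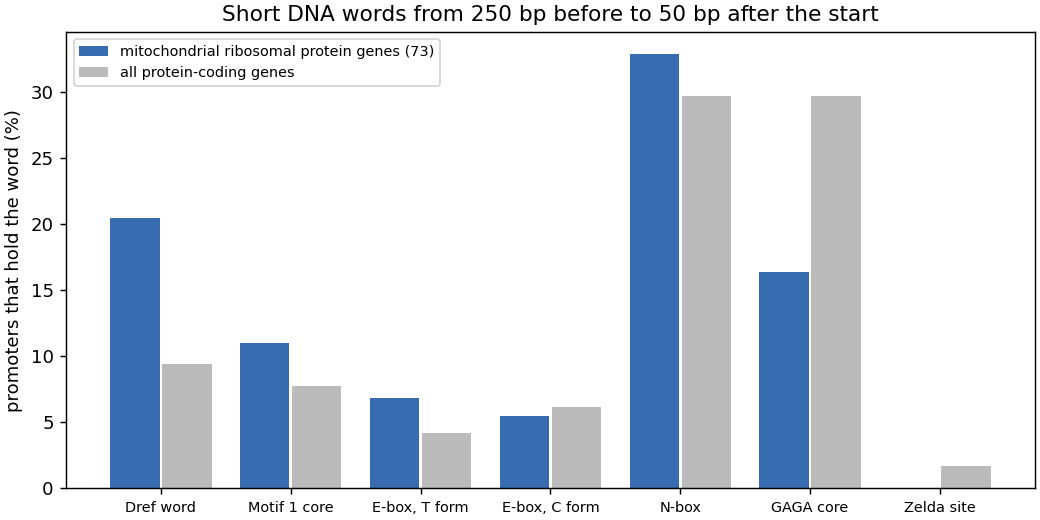
Share of promoters (%, 250 bp before to 50 bp after the start) that hold each of 7 words, for the 73 mitochondrial ribosomal protein genes (left bar of each pair) and all protein-coding genes (right bar). The Dref word stands at 20.5% against 9.36%, the GAGA core at 16.4% against 29.7%, and the N-box at 32.9% against 29.7%.

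The Dref word was near the start and mostly away from the summit. Of the 15 genes with it, 11 (73.3%) had a thresholded summit, against 50.8% of all genes with it. With GGTCACAC 4 of 8 (50%) had one, against 49.3%, and with neither word 28 of 51 (54.9%) had one, against 27.7%. In the 11 genes the word lay 43 to 416 bp from the summit, with a median of 133 bp. Within 50 bp of the summit, TATCGATA was present in 1 of 43 genes (2.33%), mRpL10, against 4.72% of all genes with a summit. GGTCACAC was in none there, against 2.24%. Of the words known for the Dpn class, the E-box CACGTG lay within 50 bp of the summit in 1 of 43 genes (2.33%), mRpL16, against 1.05%. CACGCG lay there in 1 (2.33%), mRpS25, against 1.49%. The N-box was there in 6 (14%), against 11.7%, namely at mRpS23, mRpL21, mRpS31, mRpS18B, mRpS22 and mRpS16. GAGAG was there in 2 (4.65%), mRpL23 and mRpL17, against 7.85%, and CAGGTAG in none, against 0.137%. Further words had ranked high around all summits in earlier work on these data and were added after values were seen. Of these, TAGCTA was within 50 bp in 3 of 43 genes (6.98%), against 4.58% of all genes with a summit. CGATAG, which shares letters with the end of TATCGATA, was there in 5 (11.6%), against 12.3%, and ACACTG in 2 (4.65%), against 9.59%.

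The arrangement is shown for 6 of these promoters, the best-ranked ones with the Dref word with the genes of 1 chromosome arm left out. Each line runs 5′ to 3′ on the strand of the gene, from the RefSeq genome, Release 6 (dm6), with TATCGATA in capitals. In mRpL4, mRpS18B, mRpL32 and mRpL16 the summit is base 11 of the line. The lines of mRpS23 and mRpL20 were limited to 260 bases and begin downstream of the summit, which lies before their 5′ end.
mRpS23 (chr2L:13835064-13835323, strand −): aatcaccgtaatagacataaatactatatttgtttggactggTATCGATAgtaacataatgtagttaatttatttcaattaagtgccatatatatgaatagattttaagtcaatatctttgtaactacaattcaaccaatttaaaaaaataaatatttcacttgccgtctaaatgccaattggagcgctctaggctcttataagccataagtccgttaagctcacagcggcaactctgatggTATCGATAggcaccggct
mRpL20 (chr3L:13017860-13018119, strand −): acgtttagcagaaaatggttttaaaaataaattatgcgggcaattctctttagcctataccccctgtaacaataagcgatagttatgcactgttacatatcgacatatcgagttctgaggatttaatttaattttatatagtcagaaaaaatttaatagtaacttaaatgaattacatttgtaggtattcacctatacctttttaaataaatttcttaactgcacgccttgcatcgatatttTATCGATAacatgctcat
mRpL4 (chr2L:16329103-16329253, strand −): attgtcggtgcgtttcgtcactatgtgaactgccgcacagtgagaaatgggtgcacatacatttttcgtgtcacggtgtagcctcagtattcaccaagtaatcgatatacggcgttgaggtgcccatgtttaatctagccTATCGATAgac
mRpS18B (chr2L:20097240-20097339, strand −): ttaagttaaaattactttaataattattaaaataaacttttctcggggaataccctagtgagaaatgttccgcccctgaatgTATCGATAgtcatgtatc
mRpL32 (chr3R:31252723-31252862, strand +): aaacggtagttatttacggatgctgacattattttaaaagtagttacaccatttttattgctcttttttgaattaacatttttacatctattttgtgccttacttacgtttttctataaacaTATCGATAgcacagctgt
mRpL16 (chrX:1890114-1890241, strand +): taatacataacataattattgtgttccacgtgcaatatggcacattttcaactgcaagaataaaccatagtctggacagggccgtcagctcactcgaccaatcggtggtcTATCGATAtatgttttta
mRpS23 was the one gene with the word at 2 places, and they began 9 and 209 bp upstream of its start. In mRpL20 it began 10 bp upstream and in mRpS18B 4 bp upstream. In mRpL4 it began 19 bp inside the gene.

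Within 1 kb of a start, other genes of mitochondrial gene expression had lower shares than the 58.9% of the group, a difference that was not tested. Among 15 mitochondrial tRNA synthetase genes 6 had a thresholded summit (40%), among 9 mitochondrial translation factor genes 2 had one (22.2%), and among 17 genes for mitochondrial transcription, RNA and DNA upkeep 6 had one (35.3%), each beside the 31.3% of all genes. When a summit was given only to its nearest start, the shares were 33.3%, 22.2% and 41.2% in the same order. That rule gave 32.9% for the group and 29.1% for all genes. Head-to-head partners were present at 46.7%, 33.3% and 70.6% of these lists, against 79.5% of the group. SLIRP2, for an RNA-binding protein that in mammals keeps mitochondrial messenger RNA stable, ranked 51. mtSSB, for the mitochondrial single-stranded DNA-binding protein, ranked 418, and SLIRP1 826. LeuRS-m ranked 203, with its summit 924 bp upstream. Of mitochondrial ribosomal proteins with other symbols, 2 were listed, and this list may not be complete. The gene tko, for the counterpart of bacterial S12, ranked 5044. The gene bonsai, for the counterpart of bacterial S15, had no thresholded summit and a pooled rank of 18479.

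The 2 other large complexes set beside the group were the cytoplasmic ribosome and the proteasome. Cytoplasmic ribosomal protein genes had a thresholded summit in 66 of 86 cases (76.7%) and proteasome genes in 15 of 32 (46.9%). Head-to-head partners were present at 79.5% of the mitochondrial ribosomal protein genes, 61.6% of the cytoplasmic ones and 59.4% of the proteasome genes. Under the nearest-start rule, 32.9% of the mitochondrial ribosomal protein genes, 65.1% of the cytoplasmic ones and 34.4% of the proteasome genes had a summit. The mitochondrial and cytoplasmic ribosomal genes were thus farther apart by that rule than by the 1 kb rule. Neither difference was tested.

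**Figure D5:**
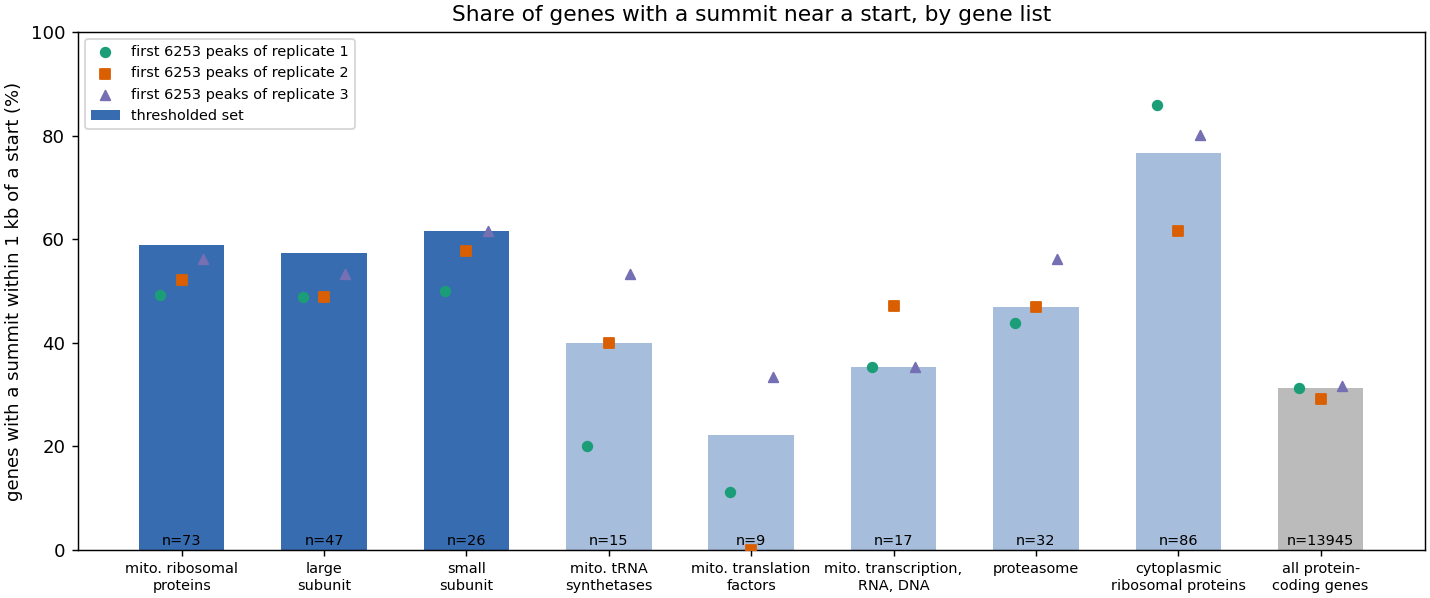
Share of genes (%) with a thresholded summit within 1 kb of a start (bars), and with a summit among the first 6253 peaks of replicates 1 to 3 (circles, squares and triangles), for the mitochondrial ribosomal protein genes, each subunit, 5 other gene lists and all protein-coding genes, with the number of genes in each bar. The mitochondrial ribosomal protein genes stand at 58.9%, with 49.3%, 52.1% and 56.2% in the replicates, between the proteasome genes at 46.9% and the cytoplasmic ribosomal protein genes at 76.7%.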

How the data were processed

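Dpn-GFP binding in 3 biological replicates of whole embryos was given as peak lists on dm6. Signal is the authors' deposited value of a peak, on a scale the sources do not define, and was used to rank peaks within a list, and the summit is the deposited offset from the peak's start. Per the deposited text listings, the relaxed lists were input for the irreproducible discovery rate procedure, and the thresholded set came from them. The aligner, peak caller, threshold and read depth are not given in the sources used here. Lists on dm3 were not used here.

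Gene models were Ensembl release 115 (BDGP 6.54), and sequence was RefSeq Release 6. All annotated starts of a gene were used, and distances are from the summit to the nearest of them. Ranks, distances and words were computed with Python 3.11.15, pandas 2.3.3 and numpy 2.4.6, and the search was checked on simulated data. Values with no test are given throughout, since there is 1 group.

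The members and lists were chosen with earlier results of these data known. Named are the 12 best-ranked genes, all genes without a summit, those next to a limit, with divided replicates, with several summits or with a word at the summit, and further genes picked for what they are known to do. The sequences shown were narrowed after values were seen to summits of strong peaks and to promoters with TATCGATA. Unmatched symbols of the other lists were mEFG2, ICT1, Oxa1, mTerf4, mtRNApol and LRPPRC2. A neighbour of 1 gene is not reported here.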

Additional observations from a re-analysis of the deposited data

How the results depend on the processing

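Of the 73 genes, 43 (58.9%) had a thresholded summit under the 500 bp window, under any base of a peak and under the most upstream start alone. The shares of all genes were 27.7%, 32.4% and 29.4%. Within 2 kb 48 (65.8%) had one, against 36.9% of all genes. In the relaxed pooled list 63 (86.3%) had a summit, against 60.5% of all genes there. Peaks also found among the first 6253 of both other replicates, when each replicate was left out, gave 29 to 34 genes (39.7% to 46.6%), against 23.5% to 25.9% of all genes. By the nearest start the count was 24 (32.9%), 15 large-subunit and 9 small-subunit genes, against 29.1% of all genes. A summit then counts only for the gene whose start is nearest. With the first 3126 peaks the count was 24 (32.9%, 13 of the large subunit), against 18.8% of all genes. With peaks found in all 3 replicates it was 28 (38.4%, 17 of the large subunit), against 22.8%. From 500 bp before to 100 bp after the start, the Motif 1 core was in 14 promoters (19.2%), against 9.82% of all promoters. In the main window it was in 8 (11%), against 7.7%. The Dref word was in 16 of the wider windows (21.9%), against 11.6%. No paired analysis was possible because there is 1 group. Read depth is unknown, control peaks were not analysed here, and whole embryos of 0 to 16 h mix cell types and stages.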
